A study of Homo sapiens with 28 samples.

Results

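In the water, CdCl2, DMSO and PFOS groups of this HepG2 study, libraries of replicates 1 and 4 stood apart from those of 2 and 3. They had higher levels of DNA replication and mitosis genes. Albumin was lower in them, as were the glucose release gene G6PC1 and the bile acid genes BAAT, CYP7A1 and CYP8B1. Of 11 tested bile acid genes 3 went the other way, SLC51B among them. The comparison set 8 libraries (replicates 1 and 4) against 8 (replicates 2 and 3) of these 4 groups, 16 of the 28 libraries of the series, with the group as a covariate. This division was chosen from measured values of those 16 libraries, so their differences are given as a description with no test. The test used the 12 remaining libraries, from the TCDD, BPA and TBTCl groups, divided by the same replicate numbers into 6 against 6. There edgeR called 0 of 18849 genes at an adjusted p under 0.05. The median log2 fold changes were 0.59 for replication and 0.41 for mitosis genes. They were -0.05 for hepatocyte proteins and -0.02 for bile acid genes.

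HepG2 is an established human liver cancer line, and poly(A) RNA was sequenced from it after exposure to environmental chemicals. All cells went 24 h without serum and were then exposed for 24 h. CdCl2 was given at 0.5 µM with water as its control. PFOS at 10 µM, BPA at 75 µM, TBTCl at 0.1 µM and TCDD at 100 nM had DMSO as their control, and the series text records that the labels of TCDD and PFOS were exchanged after deposit. Each of the 7 groups had 4 libraries. Per the labels, 4 separate experiments were run, each in technical triplicate. Whether libraries of equal number in different groups came from one experiment is not stated. If they did, the units behind the comparison are 2 experiments against 2, the p-values below are too small, and the smallest exact two-sided permutation p would be 0.333.

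Cells enter S phase when E2F transcription factors, released from the retinoblastoma protein, switch on the genes that license and copy DNA. Many genes of mitosis are held down in resting cells through a short promoter element, the cell cycle genes homology region (CHR), and are expressed later in the cycle. Differentiated liver cells, in contrast, secrete albumin and other plasma proteins, make bile acids and release glucose. HepG2 cells divide and still express many of these liver genes.

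Promoters of 6 members of these groups are shown. For each element, the genes with a match in the 100 bases before the start of their first RefSeq window were ranked. Those with the largest log2 fold change in the 16 libraries were taken. The pairing of element and difference in these 6 therefore follows from the choice. The CHR letters TTTGAA, on either strand, occur in the 250 bases before the start of 11 of the 18 mitosis genes that had a RefSeq window, against 13.3% of all 35116 windows. An E2F site spelled GGCGGGAA, on either strand and chosen after the values were seen, occurs in 7 of 20 replication genes and in 2.72% of all windows. A gene counted where any of its windows held the letters, while the shares over all windows are per window. Genes with several windows thus had more chances of a match. A match is a description of letters and not of binding. The capitals below mark the match (TTCAAA in KIF11 is the CHR on the other strand), and each line gives the 100 bases before the RefSeq start in the direction of the gene (GRCh38.p14). The intervals are chr16:23678789-23678888 (plus strand) for PLK1, chr10:92593030-92593129 (plus) for KIF11, chr15:40160969-40161068 (plus) for BUB1B, chr16:85688955-85689054 (minus) for GINS2, chr6:52284743-52284842 (minus) for MCM3 and chr20:5126623-5126722 (minus) for PCNA.
PLK1: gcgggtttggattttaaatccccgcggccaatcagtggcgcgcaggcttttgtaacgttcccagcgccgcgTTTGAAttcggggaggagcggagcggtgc
KIF11: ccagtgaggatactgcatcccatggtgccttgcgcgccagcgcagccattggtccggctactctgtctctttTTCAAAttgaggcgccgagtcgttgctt
BUB1B: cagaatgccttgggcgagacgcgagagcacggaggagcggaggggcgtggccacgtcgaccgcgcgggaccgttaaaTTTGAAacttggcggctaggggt
GINS2: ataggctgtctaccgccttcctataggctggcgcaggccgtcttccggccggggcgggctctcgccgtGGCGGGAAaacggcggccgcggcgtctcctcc
MCM3: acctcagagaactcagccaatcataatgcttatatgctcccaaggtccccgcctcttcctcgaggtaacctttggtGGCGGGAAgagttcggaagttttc
PCNA: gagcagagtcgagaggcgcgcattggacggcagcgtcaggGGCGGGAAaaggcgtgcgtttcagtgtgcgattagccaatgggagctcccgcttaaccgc

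Libraries of the same replicate number resembled each other across groups. After the group mean of each gene was removed, the deviations of equal numbers in the 16 libraries correlated across genes with a mean Pearson r of 0.517 for replicate 1, 0.344 for replicate 2, 0.321 for replicate 3 and 0.559 for replicate 4. Averaged over the libraries of all other groups, TCDD, BPA and TBTCl included, each of the 16 libraries correlated best with its own number. Among the 16 alone this did not hold for every library. DMSO replicate 3 correlated at 0.448, 0.244 and 0.471 with replicate 2 of water, CdCl2 and PFOS. With replicate 3 of these groups it correlated at 0.181, 0.427 and 0.425. The mean r was 0.012 between replicates 1 and 4 and 0.242 between 2 and 3. Where equal numbers correlate across groups, as in the 16 libraries, removing a mean over 4 libraries pushes the correlation of unlike numbers below 0. For these libraries 0 is therefore not the baseline between unlike numbers. The numbers on opposite sides correlated at -0.386 (2 and 4), -0.357 (1 and 3), -0.196 (3 and 4) and -0.187 (1 and 2). These correlations run over 18849 genes of each pair of libraries, and genes are not independent replicates. Of the 12 remaining libraries, 7 correlated best with their own number, again averaged over all other groups. Within the 12, the mean r of equal numbers was 0.240, -0.105, 0.147 and 0.075 for replicates 1 to 4.

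**Figure D1:**
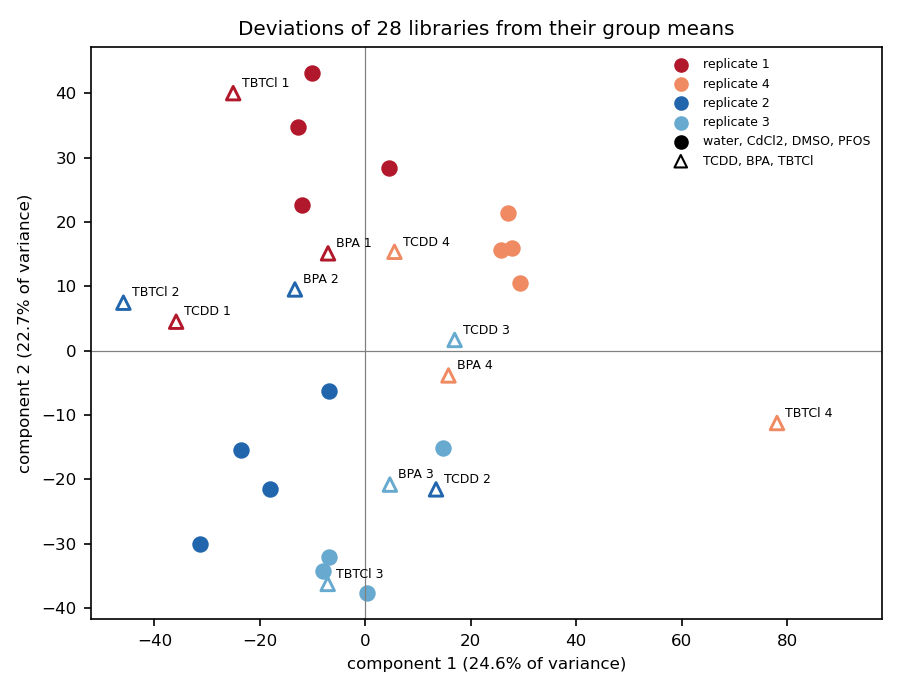
Principal components 1 (24.6% of variance) and 2 (22.7%) of the deviations of log2 CPM from the group mean, 28 libraries, coloured by replicate number. Filled circles are the water, CdCl2, DMSO and PFOS libraries and open triangles the TCDD, BPA and TBTCl libraries. On component 2 the circles of replicates 1 and 4 lie between 10.4 and 43.1 and those of 2 and 3 between -37.7 and -6.34. TBTCl replicate 4 lies apart on component 1, at 78.1.

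The split was set beside the differences between treatments in the same libraries. In a division of the variance of each gene, the replicate number held a median of 44.5% of the variance of the 16 libraries and the group held 17.2%, each with 3 degrees of freedom. The number held the larger share in 74.6% of the genes. The division into 1 and 4 against 2 and 3 alone, with 1 degree of freedom, held 17.5%. The median absolute log2 fold change was 0.211 for replicates 1 and 4 over 2 and 3, 0.159 for CdCl2 over water, 0.115 for PFOS over DMSO and 0.0949 for DMSO over water. Differences of at least 2-fold numbered 598 genes for the split (385 of them lower), 562 for PFOS over DMSO (515 lower), 307 for CdCl2 over water and 215 for DMSO over water. The split compares 8 with 8 libraries and was picked for its size, and the others compare 4 with 4. Of the variance within groups, the number held 56.8% in the 16 libraries and 35.2% in the 12 remaining ones, and the split itself 23% and 6.3%. Unrelated numbers would also hold a share, and a larger one in the 12 libraries, which leave fewer degrees of freedom within groups. The shares of the 12 are therefore not shown to exceed that of unrelated numbers. With group and split fitted (limma), libraries of one number correlated at 0.201 in the 16 and at 0.00287 in the 12.

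A gene is called separated below where, in every group, both libraries of one side lay above both of the other. Separated with at least a 1.5-fold difference were 489 genes higher in replicates 1 and 4 (2.59% of the 18849 tested) and 527 genes lower (2.8%). Separation of any size was found for 6.76% of genes in the first direction and 5.97% in the second. Protein-coding genes made up 90.2% of the 489 and 62.6% of the 527, against 71.2% of all tested genes. Antisense genes made up 2.25% and 12%, against 9.01%. Whether strand was used in counting is not stated, so reads of an antisense gene and of its partner may not have been told apart.

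Depth and library composition were looked at beside the split. In the 16 libraries total counts ran from 31.4 M to 66 M on the side of replicates 1 and 4 and from 28.9 M to 61.2 M on the other. The share of counts in the 10 most abundant genes was 8.05 to 10.5% in replicates 1 and 4 and 10.4 to 12.6% in 2 and 3. Mitochondrial mRNA (2.57 to 5.86% against 2.24 to 4.17%) and ribosomal protein genes (4.95 to 5.87% against 5.34 to 6.82%) overlapped between the sides. The part of these measures in the gene differences was not tested. In bulk RNA, fewer cells of a kind and less RNA per cell cannot be told apart. All 17 listed hepatocyte proteins were detected in every library. Of 16 markers of leukocytes, endothelium and stroma, 9 were tested, PTPRC and CD3E reached at most 0.0236 and 0.0222 CPM (CPM are read counts scaled to library size), and THY1 was at 0 in all 28. Other members were expressed. ACTA2 ran from 20.7 to 54.9 CPM, PDGFRB from 1.61 to 23.3, PECAM1 from 2.37 to 6.46 and CD14 from 0.683 to 17 CPM. The summed level of that list, mostly LYZ, was 1131 to 2332 CPM in replicates 1 and 4 and 1700 to 3056 CPM in 2 and 3.

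Genes of DNA replication were higher in replicates 1 and 4. All 24 listed genes had a log2 fold change above 0 in the 16 libraries (49.9% of all tested genes did), with a median of 0.83 against -0.0017 over all genes. Separated in all 4 groups were 19 (6.76% of all genes were, in this direction). Of these, 15 differed by at least 1.5-fold (2.59% of all genes). CDT1, E2F1, PRIM1 and CCNE2 were among those not separated in all 4 groups. The minichromosome maintenance genes MCM2 to MCM7, which encode the ring that unwinds DNA at the fork, were separated in every case, with log2 fold changes from 0.82 (MCM7) to 1.22 (MCM5).

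UHRF1, which recruits the maintenance DNA methyltransferase to newly copied DNA, showed the widest gap of the replication list. It ranged from 57.5 to 138 CPM (median 93.7) in replicates 1 and 4 and from 16.4 to 60.9 CPM (median 34.0) in 2 and 3, a log2 fold change of 1.47. The ranges overlapped only through water replicate 3, at 60.9 CPM, and CdCl2 replicate 1, at 57.5 CPM. UHRF1 lies at chr19:4903080-4962154 (plus strand). MCM5 ran from 71.0 to 147 CPM against 27.3 to 80.3 CPM. CDC6, which loads the MCM ring onto origins, ran from 51.8 to 100 CPM against 20.8 to 51.3 CPM and did not overlap between the sides. GINS2, a part of the active helicase whose promoter is shown above, ran from 26.1 to 62.1 CPM against 12.1 to 35.4 CPM, a log2 fold change of 1.13. PCNA, the sliding clamp of the polymerases, ran from 242 to 367 CPM against 133 to 237 CPM and differed by 1.46-fold.

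In the 12 libraries that did not define the split, the replication genes differed in the same direction and no gene passed the test. The median log2 fold change of the 24 genes was 0.59 (0.0062 over all genes), all 24 were above 0 (51.4% of all genes were), and 20 of 24 had an unadjusted p under 0.05 in that direction (3.02% of all genes did). At an adjusted p under 0.05 edgeR called 0 of the 18849 genes in either direction (0%), and the smallest adjusted p in the list was 0.755. Below an unadjusted p of 0.05 were 1198 of all genes, while 14 genes were called by DESeq2, with 0 of the replication list among them. Without the filter on low counts edgeR called 107 genes, 12 of them replication genes. The number of genes in that fit is not given, so these counts have no share over all genes beside them. Without TBTCl replicate 4 it called 9 genes, with 0 of the list among them. By compound the list median was 0.35 in TCDD, 0.56 in BPA and 0.90 in TBTCl. PCNA, FEN1 and MCM4 were separated in each of the 3 compounds (0.716% of all genes were, in this direction). TCDD replicate 3 stood at 0.16 above its group mean for the median replication gene and TCDD replicate 1 at -0.12, against the split. Without TCDD replicate 3 the list median was 0.74.

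UHRF1 in these libraries was 45.5 and 69.2 CPM in TCDD replicates 1 and 4 against 25.1 and 43.9 CPM in 2 and 3. In BPA it was 13.0 and 29.03 CPM against 7.31 and 7.28 CPM, and in TBTCl 101 and 27.0 CPM against 42.4 and 13.8 CPM. The sides did not overlap in TCDD and BPA and overlapped in TBTCl, where replicate 4 was below replicate 2. The log2 fold change was 1.14 ± 0.36 (SE, n = 6 against 6, edgeR adjusted p = 0.755). PCNA was 212 and 266 CPM against 130 and 211 CPM in TCDD, 102 and 121 CPM against 78.6 and 73.9 CPM in BPA, and 283 and 324 CPM against 232 and 117 CPM in TBTCl (log2 fold change 0.60 ± 0.17 SE, adjusted p = 0.755).

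**Figure D2:**
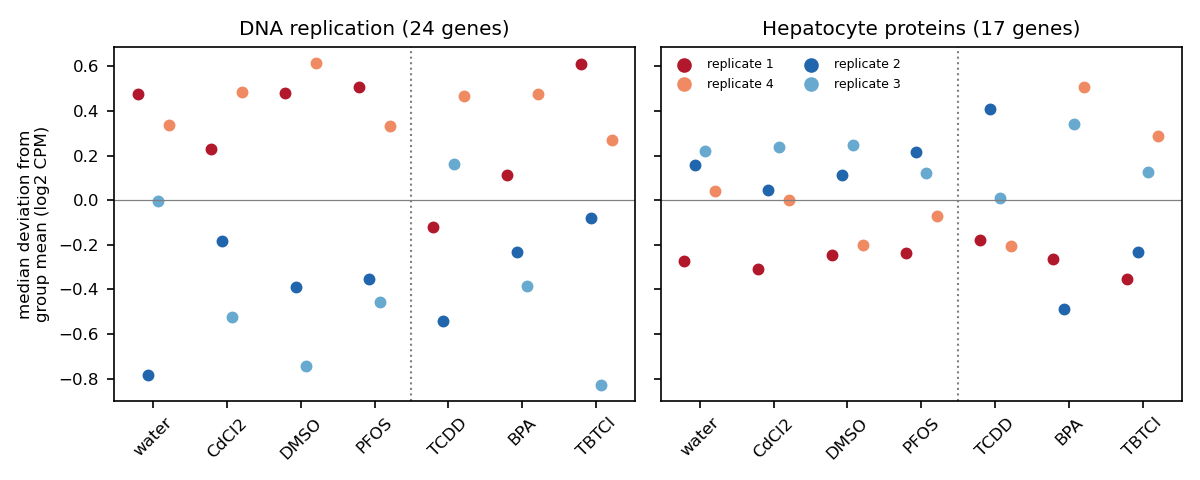
Median deviation from the group mean (log2 CPM) of 24 DNA replication genes (left) and 17 hepatocyte protein genes (right) in each of 28 libraries, coloured by replicate number. For replication genes, all points of replicates 1 and 4 left of the dotted line (water, CdCl2, DMSO, PFOS) lie between 0.23 and 0.61, and those of replicates 2 and 3 between -0.782 and -0.00514. Right of the line, TCDD replicate 3 lies above TCDD replicate 1.

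Genes of mitosis were also higher in replicates 1 and 4, by smaller amounts. All 21 tested genes of the list were above 0 in the 16 libraries (49.9% of all genes were). The median log2 fold change was 0.68. Separated in all 4 groups were 16 (6.76% of all genes), 14 of them by at least 1.5-fold (2.59%). Of the 4 groups, the list median was lowest in CdCl2, at 0.34, and was 0.82 in water, 0.81 in DMSO and 0.69 in PFOS. The genes not separated in all 4 groups were HMMR, CENPE, CDC20, UBE2C and CCNB2.

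PLK1, the kinase that drives entry into mitosis, ran from 154 to 317 CPM (median 245) in replicates 1 and 4 and from 80.1 to 189 CPM (median 115) in 2 and 3, a log2 fold change of 0.97. The sides overlapped across groups through water replicate 3 (189 CPM) and both CdCl2 libraries of replicates 1 and 4 (155 and 154 CPM). PLK1 lies at chr16:23677656-23690367 (plus strand). The spindle motor gene KIF11 ran from 36.6 to 66.2 CPM against 23.6 to 46.3 CPM, and BUB1B, a kinase of the spindle checkpoint, from 32.3 to 51.8 CPM against 19.2 to 30.2 CPM. BUB1B did not overlap between the sides. CCNA2, a cyclin of S phase and G2, ran from 53.2 to 106 CPM against 33.0 to 72.7 CPM.

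In the 12 remaining libraries 20 of the 21 mitosis genes were above 0 (51.4% of all genes were), with HMMR at -0.02. The median log2 fold change was 0.41. An unadjusted p under 0.05 was reached by 11 of the 21 (3.02% of all genes, in this direction). At the adjusted threshold edgeR called 0 of the 21. Without the filter on low counts it called 2 of them among 107 genes in all, with no share over all genes given. The list median was 0.16 in TCDD, 0.47 in BPA and 0.52 in TBTCl. PLK1 was 139 and 215 CPM against 120 and 188 CPM in TCDD, 112 and 104 CPM against 89.8 and 73.0 CPM in BPA, and 236 and 163 CPM against 126 and 101 CPM in TBTCl. The sides did not overlap for PLK1 in BPA and TBTCl (log2 fold change 0.47 ± 0.17 SE, adjusted p = 0.761). CDC20, which activates the anaphase-promoting complex, was the mitosis gene separated in all 3 compounds (0.716% of all genes were, in this direction).

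Regulators of the preceding G1 phase were mixed. Of 12 tested genes, CCND1, CDK6, E2F3 and CDKN2C were separated in all 4 groups. All were higher in replicates 1 and 4, where 6.76% of all genes were separated in that direction. The list median was 0.27 (0.17 in the 12 remaining libraries). CCND1, the cyclin that couples growth signals to the cycle, had a log2 fold change of 0.54 in the 16 libraries and 0.35 in the 12. MYC had values of 0.01 and -0.11, and CDKN1A, the p53-induced inhibitor of cyclin-dependent kinases, -0.04 in the 16 libraries, with no difference in the 12. The p53 target list had medians of -0.17 in the 16 libraries and 0.02 in the 12. In the 16 libraries 13 of its 16 genes were below 0, while 49.9% of all genes were above 0. Replication-dependent histones, whose mRNAs mostly lack poly(A) tails and are poorly sampled by this library type, had medians of -0.29 and 0.08.

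**Figure D3:**
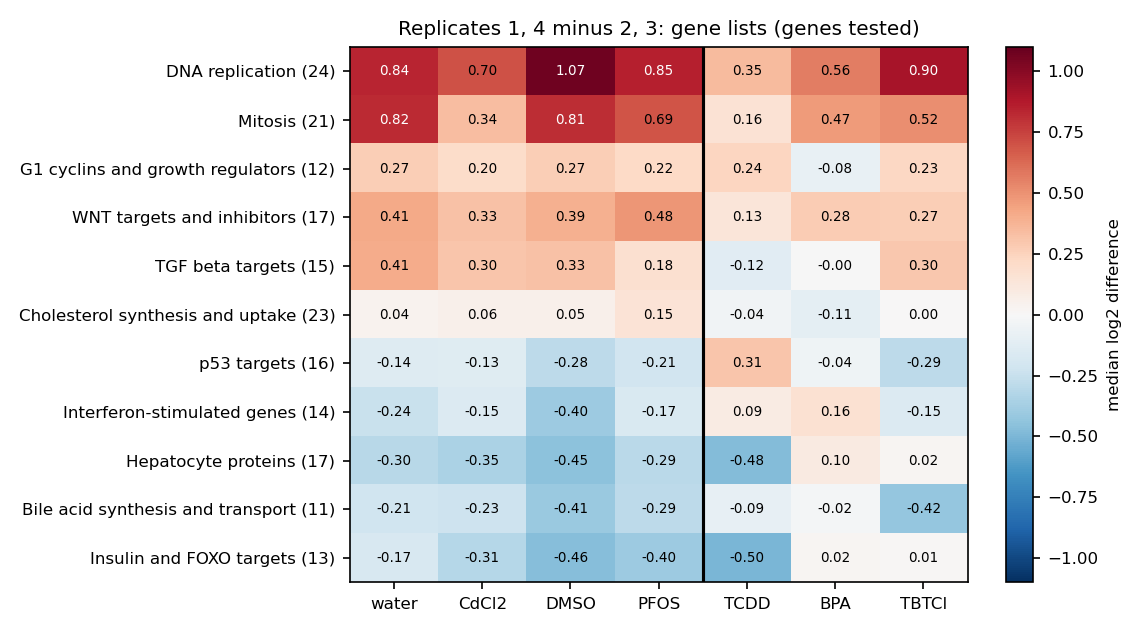
Median log2 difference between replicates 1 and 4 and replicates 2 and 3 for 11 gene lists (number of tested genes in brackets) in each of the 7 groups. Columns left of the black line are the libraries that defined the split. The replication and mitosis lists are above 0 in all 7 columns, from 0.16 to 1.07, and the hepatocyte protein list is below 0 in 5 of them, from -0.48 to 0.10.

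Among WNT targets and inhibitors, 13 of 17 genes were above 0 in both sets of libraries (49.9% and 51.4% of all genes were). The list medians were 0.41 and 0.31. NKD1, LGR5, RNF43 and ZNRF3, which are feedback genes and a receptor of this pathway, were separated in all 4 groups. All were higher in replicates 1 and 4 (6.76% of all genes were separated in this direction). CYP2E1 was separated in the other direction (5.97% of all genes were), at a mean of 0.0922 against 0.231 CPM. NKD1 ran from 267 to 440 CPM in replicates 1 and 4 and from 142 to 260 CPM in 2 and 3, with no overlap. In the 12 remaining libraries its log2 fold change was 0.34 ± 0.15 (SE, edgeR adjusted p = 0.777). Of the 20-gene glycolysis and hypoxia list, 18 were above 0 in the 16 libraries, with a median of 0.27 (0.07 in the 12). Replicates 1 and 4 lay at opposite ends for some members, picked after their values were seen. The means in replicates 1 to 4 were 3.52, 13.0, 17.1 and 53.8 CPM for CA9. For LDHA they were 1256, 1405, 1858 and 2426 CPM. Only SLC2A1, the glucose transporter GLUT1, was separated in the 16 libraries (6.76% of all genes, upward). There SLC2A1 ran from 358 to 1142 CPM against 154 to 506 CPM. It was higher by 0.58 ± 0.20 on the log2 scale in the 12 (adjusted p = 0.755), with TCDD replicate 3, at 1303 CPM, the highest library of all.

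Hepatocyte secreted proteins went the other way in the 16 libraries. Of 17 genes, 15 had a log2 fold change below 0 (49.9% of all genes were above 0), and the median was -0.22. Separated and lower in replicates 1 and 4 were 7 (5.97% of all genes were). ALB, which encodes albumin, ran from 8254 to 13719 CPM (median 9048) in replicates 1 and 4 and from 15854 to 24851 CPM (median 17646) in 2 and 3. No library of one side reached the other, and albumin was 1.91-fold lower in replicates 1 and 4. ALB lies at chr4:73397114-73421412 (plus strand). AFP, the fetal counterpart of albumin, had a log2 fold change of -0.78, and ran from 6856 to 10838 CPM against 12037 to 17388 CPM. APOA2 (0.14) and HP (0.07) were the members above 0. Replicates 1 and 4 differed in size. The median deviation of the list from the group mean ran from -0.308 to -0.239 in replicate 1. In replicate 4 it was 0.0389 in water, -0.0015 in CdCl2, -0.201 in DMSO and -0.0699 in PFOS. TF was highest in replicate 4, at a mean of 7621 CPM, against 3564, 5808 and 6446 CPM in replicates 1 to 3. The 15 hepatocyte transcription factors of the lists, such as HNF4A, had a median of 0.03. In each direction 1 was separated, near the shares of all genes (6.76% higher and 5.97% lower).

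The hepatocyte list lay near 0 in the 12 remaining libraries. Its median was -0.05, and 11 of 17 genes were below 0 (51.4% of all genes were above 0). None of the 17 had an unadjusted p under 0.05 (edgeR), against 3.33% of all genes lower and 3.02% higher. The list median was -0.48 in TCDD, 0.10 in BPA and 0.02 in TBTCl. ALB was 7705 and 5946 CPM in TCDD replicates 1 and 4 against 11980 and 7404 CPM in 2 and 3, 6341 and 8674 against 6275 and 11544 CPM in BPA, and 9217 and 12063 against 11189 and 19316 CPM in TBTCl. Its sides overlapped in all 3 compounds (log2 fold change -0.43 ± 0.21 SE, edgeR adjusted p = 0.800). The sign of the list median in these libraries depended on single replicate numbers: it was 0.15 without replicate 1 and -0.29 without replicate 4.

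Single genes of glucose release and bile acid synthesis were among those with the widest gaps below 0. G6PC1 encodes the catalytic subunit of glucose-6-phosphatase, the last step of glucose release, and lies at chr17:42900797-42913369 (plus strand). It ran from 1.69 to 21.1 CPM (median 6.55) in replicates 1 and 4 and from 28.1 to 82.4 CPM (median 43.0) in 2 and 3, a 6.03-fold difference with no overlap. The means by number were 4.72 CPM in replicate 1, 12.6 in replicate 4, 40.6 in replicate 2 and 54.9 in replicate 3. In the 12 remaining libraries G6PC1 was 20.5 and 20.7 CPM against 74.7 and 33.1 CPM in TCDD, 17.3 and 82.8 against 17.4 and 81.6 CPM in BPA, and 4.32 and 24.3 against 12.7 and 118 CPM in TBTCl. It was separated in TCDD and overlapped in the others, with a log2 fold change of -1.20 ± 0.65 (SE, edgeR adjusted p = 0.838). That value was -0.27 without replicate 3 and -2.07 without replicate 4, and in the 16 libraries G6PC1 was at -3.54 without replicate 4. PCK1, which acts earlier in glucose synthesis, had fitted values of -0.44 and -0.10, while its mean level in the 12 libraries was 12.6 CPM in replicates 1 and 4 and 12.0 CPM in 2 and 3. The list of insulin and FOXO targets had medians of -0.38 and -0.03.

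BAAT, the enzyme that joins bile acids to glycine or taurine, ran from 6.18 to 29.5 CPM in replicates 1 and 4 and from 37.6 to 195 CPM in 2 and 3, a 3.86-fold difference. CYP7A1, the rate-limiting enzyme of the classic bile acid pathway, ran from 0.919 to 3.30 CPM against 3.91 to 9.03 CPM, 3.19-fold. Neither gene overlapped between the sides. CYP8B1, which sets the ratio of bile acid species, was also separated (-0.78), while the exporter subunit SLC51B was separated in the other direction (1.06). Of all genes, 5.97% were separated downward and 6.76% upward. The 11-gene list had a median of -0.24. In the 12 remaining libraries the log2 fold change was -0.89 ± 0.42 for BAAT (SE, edgeR adjusted p = 0.797) and -0.55 ± 0.49 for CYP7A1 (adjusted p = 0.921), and the list median was -0.02. Without replicate 3 the value for BAAT was -0.23. TBTCl gave the largest differences of the compounds for both, -1.16 and -1.28.

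**Figure D4:**
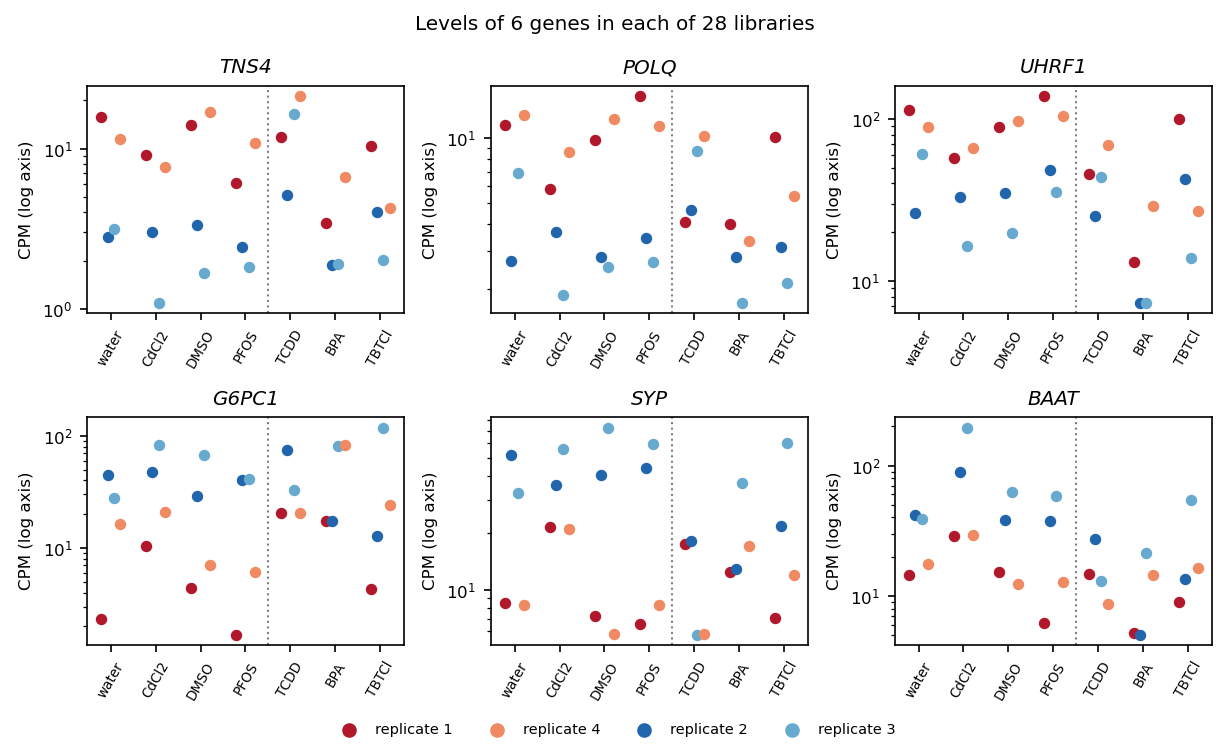
Levels (CPM, log axis) of TNS4, POLQ, UHRF1, G6PC1, SYP and BAAT in each of 28 libraries, by group and coloured by replicate number. Left of the dotted line (the libraries that defined the split) red and orange points (replicates 1 and 4) lie above the blue points (2 and 3) in the top panels and below them in the bottom panels, within every group. Right of it the colours mix, as for G6PC1 in BPA, where replicates 3 and 4 are at 81.6 and 82.8 CPM.

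The 10 genes with the largest difference above 0 were TNS4, PRIMA1, POLQ, CYP24A1, CDCA7, KCNJ10, TTC26, PBK, TAGLN2 and TMEM59L, with log2 fold changes from 2.21 to 1.51 in the 16 libraries. TNS4 encodes a focal adhesion protein and lies at chr17:40475828-40501597 (minus strand). It ran from 6.09 to 16.9 CPM (median 11.1) in replicates 1 and 4 and from 1.09 to 3.34 CPM (median 2.61) in 2 and 3, a 4.62-fold difference with no overlap. In the 12 remaining libraries TNS4 was 11.7 and 21.2 CPM against 5.10 and 16.5 CPM in TCDD, 3.46 and 6.69 against 1.88 and 1.92 CPM in BPA, and 10.4 and 4.28 against 4.04 and 2.02 CPM in TBTCl. The sides overlapped in TCDD, through replicate 3, and not in BPA or TBTCl (log2 fold change 1.09 ± 0.34 SE, edgeR adjusted p = 0.755).

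POLQ, the polymerase of a break repair pathway that joins DNA ends at short matches, ran from 5.83 to 15.7 CPM against 1.88 to 6.92 CPM in the 16 libraries and was 3.31-fold higher in replicates 1 and 4. It lies at chr3:121431427-121546641 (minus strand). In the 12 libraries its log2 fold change was 0.77 ± 0.32 (SE, adjusted p = 0.777). CDCA7, which takes part in DNA methylation, ran from 20.7 to 57.4 CPM against 4.84 to 28.6 CPM. CYP24A1, which breaks down active vitamin D, had levels that depended on the compound: 0.646 to 14.4 CPM in the 16 libraries, but 21.7 to 125 CPM in BPA, where replicates 1 and 4 were at 125 and 74.0 CPM and 2 and 3 at 51.3 and 21.7 CPM. In TCDD its sides overlapped, at 1.05 and 2.12 against 0.389 and 2.32 CPM. The potassium channel gene KCNJ10 ran from 9.21 to 14.9 CPM against 2.67 to 5.31 CPM in the 16 libraries without overlap.

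The 10 genes with the largest difference below 0 were G6PC1, SYP, SYT11, BAAT, LINC02532, CCNT2-AS1, PRRG2, CYP7A1, DEPP1 and PIWIL2, with log2 fold changes from -2.59 to -1.57. SYP, which encodes the vesicle protein synaptophysin, lies at chrX:49187804-49200259 (minus strand). It ran from 5.79 to 21.6 CPM (median 8.33) in replicates 1 and 4 and from 32.6 to 72.5 CPM (median 48.3) in 2 and 3, 5.02-fold lower in the former with no overlap. In TBTCl it was 7.11 and 12.0 against 21.9 and 59.9 CPM, in BPA 12.4 and 17.1 against 12.9 and 36.9 CPM, and in TCDD 17.5 and 5.83 against 18.1 and 5.78 CPM. The sides were apart in TBTCl alone (log2 fold change -0.97 ± 0.45 SE, edgeR adjusted p = 0.789). SYT11, another gene of membrane traffic, ran from 0.883 to 4.13 CPM against 1.43 to 17.0 CPM in the 16 libraries. DEPP1, a target of FOXO factors, ran from 13.0 to 104 CPM against 68.9 to 234 CPM.

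All 20 of these genes had the same sign in the 12 remaining libraries, and edgeR called 0 of them. Without the filter on low counts it called 9, namely TNS4, CYP24A1, KCNJ10, TMEM59L, G6PC1, SYP, BAAT, LINC02532 and DEPP1. That fit called 107 genes in all, and the number of genes in it is not given, so no share stands beside the 9. Their log2 fold changes hardly moved, as for TNS4 (1.084 against 1.086 with the filter). Single replicate numbers moved some of these values in the 12 libraries: TMEM59L was 0.27 without replicate 4, and DEPP1 -0.07 without replicate 3 and -1.30 without replicate 4. In the 16 libraries CYP24A1 was 1.18 without replicate 3 and 2.60 without replicate 2, and DEPP1 was -2.19 without replicate 4. The sign for TTC26, PBK, SYT11, CCNT2-AS1, PRRG2 and PIWIL2 rested on TBTCl. Without that group their log2 fold changes were -0.15, -0.01, 0.18, 0.22, 0.34 and 0.09. Whether the split differed among TCDD, BPA and TBTCl was tested with an interaction term, and edgeR called 0 genes (smallest adjusted p = 0.968), with 601 at an unadjusted p under 0.05.

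**Figure D5:**
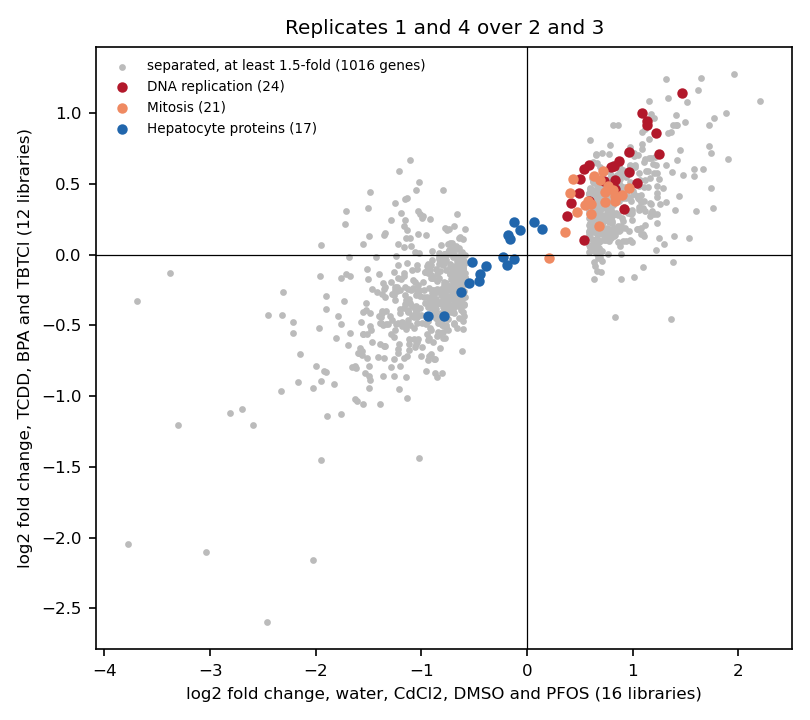
Log2 fold change of replicates 1 and 4 over 2 and 3 in the 16 libraries that defined the split (horizontal) and in the 12 remaining libraries (vertical). Grey points are the 489 and 527 genes separated by at least 1.5-fold, and colours mark 3 gene lists. All 24 replication genes lie above 0 on both axes, while 6 of 17 hepatocyte protein genes lie above 0 on the vertical axis.

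Most genes chosen in this way had the same direction, at a smaller size, in the libraries that played no part in the choice. Of the 489 genes higher in replicates 1 and 4, 475 (97.1%) were above 0 in the 12 libraries, and their median log2 fold change was 0.38, against 0.78 where they were chosen. Of the 527 lower genes 462 (87.7%) were below 0, with medians of -0.30 and -0.91. The sign was the same in both sets in 68.2% of all 18849 genes. An unadjusted p under 0.05 in the same direction was reached by 171 of the 489 (35%; 3.02% of all genes) and by 67 of the 527 (12.7%; 3.33% of all genes). Over both directions, 92.2% had the same sign, 69.7% without the TBTCl group and 84.2% without TBTCl replicate 1 alone.

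Genes separated in all 7 groups, with at least a 1.5-fold difference in the 16 libraries, were few. Genes below that difference, such as PCNA, were not counted. They numbered 12 of the 489 (2.45%) and 2 of the 527 (0.38%), while 0.716% of all genes were separated upward and 0.727% downward in the 3 compounds. The following were picked after their values were seen. HPX, which encodes the plasma haem carrier hemopexin, was 21.5 against 9.42 CPM in the 16 libraries and 17.8 against 8.30 CPM in the 12 (log2 fold changes 1.20 and 0.97 ± 0.24 SE, edgeR adjusted p = 0.755). CLSPN, a checkpoint protein of the replication fork, was 27.5 against 15.7 CPM and 16.1 against 8.33 CPM. The 2 lower genes were MYOM1 (log2 fold changes -0.94 and -0.60) and LINC02331 (-0.80 and -0.84).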

How the data were processed

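The members and gene lists were chosen with earlier results of these data known. Integer read counts per gene were deposited by the authors, who used fastp, STAR and HTSeq on GRCh38 and DESeq2 per the submitters' processing notes. The sources used here give no versions, annotation release or strand setting. The table held 63140 genes, and its final entry, which may be cut short, was dropped. Gene positions are from GENCODE 29, matched for 58126 identifiers, and promoters from RefSeq, GRCh38.p14.

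Total counts were 28.9 M to 66 M (median 46.5 M), and 3 counts corresponded to 0.0454 to 0.104 CPM, counting error only. filterByExpr (minimum count 10) left 18849 genes. Fold changes, SE and Benjamini-Hochberg adjusted p are from edgeR 4.0.16 (quasi-likelihood, TMM, group plus split), fitted apart for the 16 libraries (11 residual degrees of freedom, no p used) and the 12 (8). An SE is the log2 fold change divided by the square root of F. CPM are TMM-scaled over all 28 libraries, and deviations use log2 CPM with a prior count of 2. The 20 named genes are the 10 largest differences each way among genes with a symbol, 5 CPM on one side and separation in 4 groups. Code was tested on simulated data. p-values measure the spread between these libraries. Alternatives were other scaling factors, no filter, DESeq2 1.42.0, replicate blocks (limma 3.58.1), left-out libraries, numbers and groups, and a joint fit.

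In the 16 libraries all same-number correlations lay from 0.123 to 0.630. In the 12 they differed by number. They ran from 0.166 to 0.282 for replicate 1 and from 0.00573 to 0.324 for replicate 3. For replicate 2 they ran from -0.353 to 0.283, and for replicate 4 from -0.0373 to 0.146. A fixed block cannot be fitted, since the split lies between numbers. Some results are not reported here.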

Additional observations from a re-analysis of the deposited data

Results flagged for a closer look

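Within the sets of 4 libraries of one group, 8 values of 175 sets (4.57%) had a gap to the nearest library that was large for their range. For independent normal values, the criterion used (Dixon's) is passed by chance in about 1 in 20 sets, and these sets share libraries and hold genes chosen for their differences. The share of counts in ribosomal protein genes was 6.82% in water replicate 3, against 5.34 to 5.59% in the other water libraries. Water replicate 2 held 3 of the values: SYT11 at 7.02 CPM (others 0.907 to 1.43), CCNT2-AS1 at 14.2 CPM (3.15 to 5.02) and PRRG2 at 4.62 CPM (1.55 to 1.9). In TBTCl, TMEM59L was at 32.9 CPM in replicate 4 (5.79 to 10.1) and BAAT at 54.5 CPM in replicate 3 (9 to 16.4). CCNT2-AS1 was at 2.45 CPM in BPA replicate 3 (1.47 to 1.63), and PRRG2 at 3.16 CPM in TCDD replicate 1 (1.3 to 1.59).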

How the results depend on the processing

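Among the alternatives for the 20 named genes in the 12 libraries that did not define the split, 502 kept direction and side of the threshold, 9 changed sign and 9 passed the threshold. In these libraries edgeR called 0 genes, but with no filter on low counts it called 55 higher and 52 lower, and 205 for the interaction. DESeq2 called 1 higher and 13 lower, and a joint fit of all 28 libraries called 1 lower. Leaving out single libraries or numbers gave 0 to 9 lower genes and 0 higher ones, with 9 without TBTCl replicate 4. The cause of these changes was not tested.

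The 2 fits with replicate numbers as a block called 0 genes. They changed no other call and gave WNT medians of 0.2104 (random block) and 0.2039 (numbers averaged over compounds) in the 12 libraries. Without the TCDD group that median was 0.394, and without BPA 0.1875. In the 16 libraries it was 0.5077 without CdCl2, and the bile acid median was -0.156 without DMSO. Without TBTCl, 69.7% of separated genes had the same sign in both sets, and TTC26 (-0.1535), PBK (-0.01048), SYT11 (0.1802), CCNT2-AS1 (0.2203), PRRG2 (0.3397) and PIWIL2 (0.09187) changed sign.

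Leaving out single libraries or numbers, the 16 libraries gave 447 to 1070 separated genes higher and 523 to 1048 lower, where fewer libraries make separation easier. List medians there ran from 0.2455 to 0.328 (G1), 0.2611 to 0.5168 (WNT), -0.4325 to -0.2054 (hepatocyte proteins), -0.3605 to -0.08795 (bile acids), -0.6268 to -0.06994 (insulin and FOXO), -0.2868 to -0.06436 (p53), -0.3397 to -0.1411 (interferon) and 0.1444 to 0.4362 (TGF beta). In the 12 libraries they ran from 0.06562 to 0.3543 (G1), 0.1482 to 0.3512 (WNT) and -0.1328 to 0.1704 (interferon). The share of separated genes with the same sign ran from 84.2 to 95.1%, SYT11 from -0.9106 to 0.02952 and PRRG2 from -0.4956 to 0.1555.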

Other observations

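Imprinted genes, the subject of the series, are given here by replicate number, and those named were picked after their values were seen. IGF2, the fetal growth factor expressed from the paternal allele, was highest in replicate 4 in 7 of 7 groups. Its mean over the 7 groups was 1582 ± 391 CPM in replicate 1, 2326 ± 1073 in replicate 2, 3479 ± 832 in replicate 3 and 5473 ± 1395 in replicate 4 (SD, n = 7). Replicate 4 exceeded replicate 1 by 2.35- to 5.11-fold within a group. In the 16 libraries the log2 fold change of IGF2 across the split was 0.31, and its sides were separated in 0 of the 4 groups. Of the other imprinted genes, PEG3 and GNAS were highest in replicate 4 in 6 of 7 groups, and DLK1 and MEST in 5. PLAGL1 and GRB10 were so in 4, but the mean of GRB10 was lowest in replicate 4 (22.1 CPM against 25.2, 26.0 and 22.2 CPM in replicates 1 to 3). SGCE was highest in replicate 3 in 6 of 7 groups and SLC38A4 in 5. IGF2R was highest in replicate 2 in 4 and PHLDA2 in replicate 1 in 4, while for PEG10 no number was highest in more than 3. How often other genes were highest in the same number was not counted. Over all genes of the 16 libraries the number held a median of 44.5% of the variance, so these counts are not shown to be particular to imprinted genes. Of 12 tested imprinted genes, only SLC38A4, an amino acid transporter gene, was separated by the split (5.97% of all genes were, in this direction). It was at 3.07 to 6.01 CPM in replicates 1 and 4 and 6.90 to 15.6 CPM in 2 and 3 (log2 fold change -1.49). In the 12 remaining libraries it was -0.89 ± 0.40 (SE, edgeR adjusted p = 0.777).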
